A study of Mus musculus with 2 samples.

Results

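A set of 8 genes of the CXC chemokine system was followed in lung-resident immune cells: the ligands Cxcl1, Cxcl2, Cxcl3, Cxcl12, Cxcl13, Cxcl14 and Pf4, and the receptor Cxcr2. They were taken by gene symbol, and 8 of the 31053 genes in the count matrices were members, with all 8 present in both libraries. The data are 2 single-cell RNA libraries (10x Genomics 3' chemistry, version 3) of live adult mouse lung cells, 1 library from tamoxifen-injected and 1 from oil-injected mice. Both groups carried the same alleles, labelled Gli1creERT/Hhipflo/flox: a tamoxifen-inducible Cre driven by Gli1, a gene of hedgehog-responding mesenchymal cells, and a floxed Hhip, which encodes an inhibitor of hedgehog ligands. The Cre driver marks Gli1-expressing cells, whereas the sort kept CD45-positive cells that an antibody given into the blood just before death had not reached. The number, age, sex and strain of the animals were not stated, and both libraries held cells of both sexes.

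CXC chemokines are small secreted proteins that guide leukocytes along gradients, many of them held on the glycosaminoglycans of matrix and cell surface. Cxcl1, Cxcl2 and Cxcl3 share an ELR motif before their first cysteines, bind Cxcr2 and recruit neutrophils, and Cxcl13 binds Cxcr5 and draws B cells into follicles and tertiary lymphoid structures. Cxcl12 retains and guides Cxcr4-bearing cells, Pf4 (Cxcl4) is the platelet factor stored in alpha granules, and Cxcl14 is a chemokine of epithelium and connective tissue whose receptor is less settled.

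Cells were grouped by 7 marker gates, each a minimum number of UMIs (unique molecular identifiers, 1 per captured RNA molecule) over named genes. The gates were alveolar macrophages (Krt79 and Plet1, at least 2), C1q macrophages (C1qa and C1qb, at least 5), Folr2 macrophages (Folr2, Cd163 and Stab1, at least 2), type 2 conventional dendritic cells or cDC2 (Mgl2 and Cd209a, at least 1), neutrophils (Csf3r and Retnlg, at least 2), endothelial cells (Cdh5 and Cldn5, at least 2) and fibroblasts (Dcn and Col1a2, at least 3). The alveolar gate held 2507 tamoxifen and 476 oil cells, the C1q gate 1262 and 1221, the Folr2 gate 234 and 285, the cDC2 gate 1659 and 2035, the neutrophil gate 315 and 99, the endothelial gate 257 and 281, and the fibroblast gate 85 and 99. A level below is a gene's UMIs over all UMIs of the gate's cells, given as CPM, UMIs per 1000000, and a ratio is log2 of the tamoxifen over the oil CPM. With 1 library per condition no difference could be tested, so every interval (95%, exact) covers counting error only and not the spread between animals, which is not known here.

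The gene neighbourhood came first, because 4 of the 8 members lie together on mouse chromosome 5 (GRCm38, GENCODE M21 annotation, all on the plus strand). Pf4 lies at chr5:90772435-90773383, Cxcl3 at chr5:90786103-90789600, Cxcl1 at chr5:90891241-90893115 and Cxcl2 at chr5:90903871-90905938, so that the starts of Pf4 and Cxcl2 are 131.4 kb apart. Cxcl13 lies on the same chromosome but 5053.1 kb beyond Cxcl2, at chr5:95956951-95961068. Cxcl12 is at chr6:117168535-117181367 (plus), Cxcl14 at chr13:56288643-56296551 (minus) and Cxcr2 at chr1:74153989-74161246 (plus). No member overlapped another annotated gene. The promoters of the 3 ELR ligands are shown because these genes are textbook targets of NF-kB and of inflammatory signals, and because their levels below did not go together. They are RefSeq sequences on GRCm38.p6, plus strand, from 250 bases before to 50 bases after the RefSeq start, and capitals mark matches to the kB-type motif GGGANNTTCC on either strand:
Cxcl1, chr5:90890995-90891294: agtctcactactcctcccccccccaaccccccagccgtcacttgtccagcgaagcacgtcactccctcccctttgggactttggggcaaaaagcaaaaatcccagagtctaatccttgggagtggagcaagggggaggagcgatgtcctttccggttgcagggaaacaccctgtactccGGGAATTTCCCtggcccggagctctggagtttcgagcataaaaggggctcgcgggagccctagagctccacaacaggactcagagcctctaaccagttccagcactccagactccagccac
Cxcl2, chr5:90903649-90903948: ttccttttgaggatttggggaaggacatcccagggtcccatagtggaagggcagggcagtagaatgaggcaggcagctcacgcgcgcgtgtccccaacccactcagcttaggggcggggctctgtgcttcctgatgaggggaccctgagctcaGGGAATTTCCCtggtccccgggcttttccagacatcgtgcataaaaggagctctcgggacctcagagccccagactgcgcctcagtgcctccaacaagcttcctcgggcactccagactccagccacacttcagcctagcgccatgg
Cxcl3, chr5:90785851-90786150: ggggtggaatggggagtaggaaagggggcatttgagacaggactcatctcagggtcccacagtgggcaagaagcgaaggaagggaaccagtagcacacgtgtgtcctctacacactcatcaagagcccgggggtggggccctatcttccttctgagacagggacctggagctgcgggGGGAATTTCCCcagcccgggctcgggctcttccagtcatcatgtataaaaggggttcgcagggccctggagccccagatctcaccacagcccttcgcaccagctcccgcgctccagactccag
Each of the 3 held the same 11-base run, GGGAATTTCCC, in which a forward and a reverse-strand match of 10 bases overlap by all but 1 base. It began 71 bases before that start in Cxcl1, 97 in Cxcl2 and 73 in Cxcl3. None of the other 5 members' promoters held the motif, and 482 of the 32851 mouse promoters in the table did (1.47%). Cxcl1 and Cxcl2 also shared a run of 20 identical bases, and each shared 13 with Cxcl3. TATAAA was found in the promoters of Cxcl3 and Cxcl13, and in 13.6% of all promoters. The AP-1 type motif TGANTCA was in none of the 8 windows, against 7.81% of all. A match describes the letters in these windows and is not evidence of binding.

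Sequence likeness also bears on the counting. In the longest protein-coding transcript of each gene, Cxcl2 and Cxcl3 shared a run of 110 identical bases, while Cxcl1 shared at most 23 with either. The shared run ends 1687 bases before the 3' end of Cxcl2 and 850 before that of Cxcl3, away from the 3' end where this chemistry reads. The sources used here do not say how the authors' counting treated reads that match both genes.

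The libraries differed in ways that touch the members. The tamoxifen library held 12980 barcodes and 83730550 UMIs and the oil library 10342 and 57704412, of which 10138 and 6794 barcodes passed the filters (at least 300 genes, under 10% mitochondrial UMIs), at a median of 6431 and 6360.5 UMIs per cell. The mitochondrial limit was exceeded by 20.7% of tamoxifen and 31.9% of oil barcodes. The libraries shared 41 barcodes, 18 of them kept in both. Cells of the alveolar gate were 24.7% of tamoxifen and 7.01% of oil cells, and neutrophil-gate cells 3.11% and 1.46%. Among the kept cells 60.7% in tamoxifen and 54.7% in oil were female and 16.6% and 20.8% male, by UMIs of sex-linked genes. In the alveolar gate 79.9% of tamoxifen and 60.7% of oil cells were female. Hhip had 29 UMIs in 13 tamoxifen cells and 40 in 24 oil cells, with 23 and 24 UMIs in the fibroblast gates, so at this depth the deletion could not be checked in the sorted cells.

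The gates were set against markers not used to draw them. All 9 alveolar macrophage markers were at least 2-fold over the rest of the cells in both libraries, as were 5 of 5 endothelial, 5 of 5 fibroblast and 6 of 6 interstitial macrophage markers in the C1q gate. In the Folr2 gate 4 of 5 Folr2 macrophage markers passed in each library, and in the cDC2 gate 4 tamoxifen and 5 oil of 6. The cDC2 gate also had all 6 interstitial macrophage markers at least 2-fold over the rest in both libraries, and these summed to 3403 CPM in tamoxifen and 3162 CPM in oil, above the 1663 and 2062 CPM of its own markers, so cDC2 below names the gate and not a pure cell type. The neutrophil gate differed between the libraries in its own markers: its neutrophil markers summed to 41372 CPM in tamoxifen and 4524 CPM in oil, with Ly6g at 0 in oil, and 51.4% of its tamoxifen and 48.5% of its oil cells were also in another gate. Of its cells, 105 tamoxifen and 8 oil cells also met the alveolar gate, and 60 and 38 the C1q gate. Nearly all Folr2 cells (94.9% in tamoxifen, 96.8% in oil) and most C1q cells (78.1% and 90.7%) lay in a further gate too. For alveolar cells it was 16.7% in tamoxifen and 32.4% in oil. Of the Folr2 cells 199 in tamoxifen and 214 in oil were C1q cells as well, and 879 and 1059 C1q cells met the cDC2 gate. Values for cells in 1 gate only are given where they bear on a result.

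**Figure D1:**
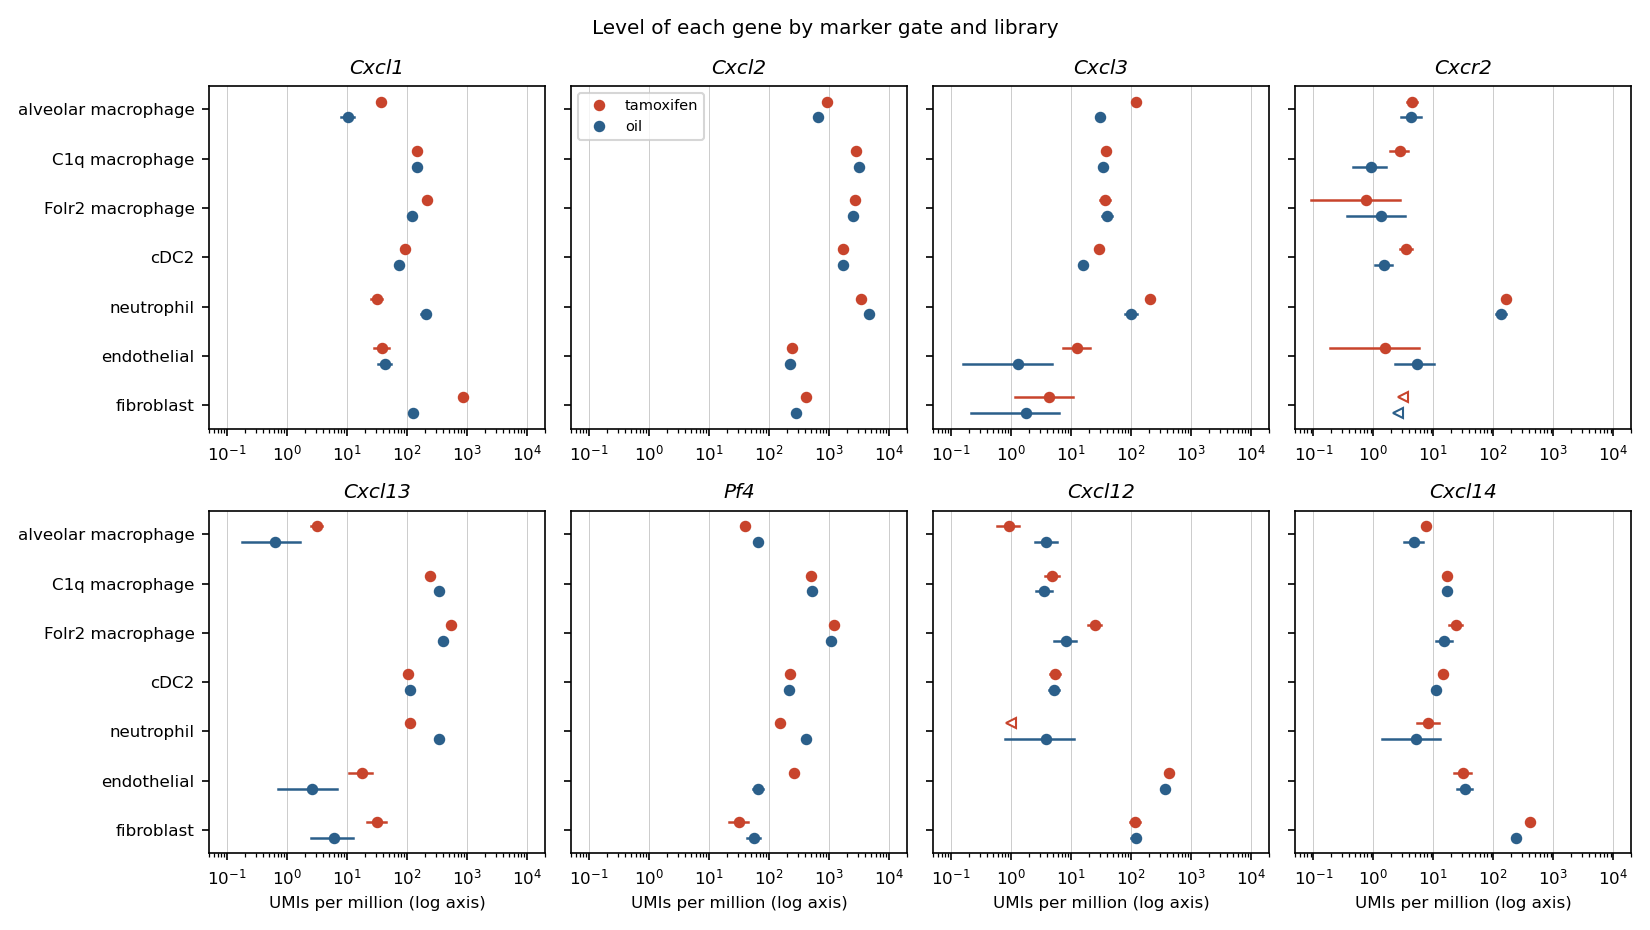
Level of each of the 8 genes (CPM, log axis) in the 7 gates, with tamoxifen drawn above oil. Bars are exact 95% Poisson intervals of 1 library each, and an open triangle marks a gate with no UMI, drawn at the level of 3 UMIs. Cxcl12 and Cxcl14 stand highest in endothelial and fibroblast gates, Cxcl13 and Pf4 in C1q and Folr2 macrophages, Cxcr2 in neutrophils, and Cxcl1 of the tamoxifen library in fibroblasts.

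Cxcl1, the keratinocyte-derived chemokine and a ligand of Cxcr2, differed most in the fibroblast gate. It had 807 UMIs in the 85 tamoxifen fibroblasts, or 845 CPM (788 to 906), against 144 UMIs in the 99 oil fibroblasts, or 126 CPM (107 to 149). The ratio was 2.74 (2.48 to 3.01), a 6.69-fold higher level in tamoxifen. More cells also carried it, 34 of 85 tamoxifen cells (40%) against 21 of 99 oil cells (21.2%), and 26.2% against 10.5% once each of the 80 tamoxifen and 95 oil cells with enough depth was thinned to 1500 UMIs. The 3 highest cells held 153, 68 and 65 UMIs in tamoxifen and 36, 19 and 13 in oil, which was 35.4% and 47.2% of the gene's UMIs in the gate. Cells with at least 5 UMIs numbered 27 in tamoxifen and 10 in oil and held 98.1% and 82.6% of the UMIs. The tamoxifen gate thus had both more positive cells and higher ones, and the ratio was 3.02 without the 3 highest cells of each library. It was 2.67 among female and 2.39 among male fibroblasts, and it lay between 2.39 and 3.18 in all 12 alternatives computed.

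Other cell markers moved with the fibroblast gate. Fibroblast markers themselves were close, at 15542 CPM in tamoxifen and 13433 CPM in oil. The 5 epithelial markers (Sftpc, Krt8, Krt18, Nkx2-1 and Cldn3) summed to 2961 CPM in tamoxifen, where all 5 were at least 2-fold over the rest, against 14.9 CPM in oil, where none was and Cldn3 was at 0. Cxcl15, the lung epithelial chemokine, followed them with 147 UMIs in tamoxifen and 1 in oil. In the 53 tamoxifen and 57 oil cells in the fibroblast gate alone, the epithelial sum was 110 and 22.2 CPM, while Cxcl1 was at 1485 and 172 CPM, a ratio of 3.11. The Cxcl1 ratio was thus as large in these cells, where the epithelial sum was lower but still higher in tamoxifen than in oil. Il17a, a cytokine of T cells that induces Cxcl1 in stromal cells, also had more UMIs in the fibroblast gate, 242 in tamoxifen (253 CPM) and 30 in oil (26.3 CPM), while the 4 T cell markers summed to 186 and 91.2 CPM. The parts of these cells and of Il17a in the Cxcl1 difference were not tested.

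Cxcl1 in macrophages gave a different picture. In C1q macrophages it stood at 144 CPM (138 to 151) in tamoxifen and 147 CPM in oil, with a ratio of -0.03 (-0.12 to 0.07) and 21.4% and 19.3% of cells positive. In alveolar macrophages, which had the lowest oil level of the 7 gates, it had 1017 UMIs in tamoxifen (37.1 CPM, 255 cells) and 64 in oil (10.2 CPM, 19 cells), a ratio of 1.86 (1.49 to 2.24). Of the oil UMIs 59.4% were in 3 cells, against 7.28% of the tamoxifen UMIs. Female alveolar cells gave 1.59 (43 CPM in tamoxifen, 14.3 CPM in oil). Male ones gave 1.81 (7.97 and 2.28 CPM), on 21 tamoxifen and 3 oil UMIs. The part of the sex mix in the ratio of the whole gate was not tested. In Folr2 macrophages the level was 216 CPM in tamoxifen and 122 CPM in oil (0.82, 0.63 to 1.01). The order of levels began with fibroblasts in tamoxifen, followed by Folr2 and C1q macrophages, whereas in oil the neutrophil gate (203 CPM), the C1q gate, the fibroblasts and the Folr2 gate lay between 122 and 203 CPM. The oil neutrophil value rested on 16 cells, with 58.5% of the UMIs in 3 of them, and in cells of the neutrophil gate alone 8 UMIs were left, all in 1 cell. The ratio in the neutrophil gate, -2.70 for all its cells, was -0.09 in the cells of that gate alone. Of all Cxcl1 UMIs, fibroblasts held 18.6% in tamoxifen and 5.88% in oil although they were 0.838% and 1.46% of the cells.

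Cxcl3, the third ELR ligand, differed most in alveolar macrophages among the gates with at least 50 of its UMIs. There it had 3358 UMIs in tamoxifen, or 122 CPM (118 to 127), against 189 UMIs in oil, or 30.3 CPM, a ratio of 2.02 (1.81 to 2.24) and 4.05-fold. It was found in 386 of 2507 tamoxifen cells (15.4%) and 31 of 476 oil cells (6.51%), and in 7.71% of 2451 and 2.99% of 468 cells thinned to 1500 UMIs. The tamoxifen UMIs were spread widely, with 7.33% of them in the 3 highest cells against 38.6% of the oil UMIs. Cells with at least 5 UMIs made up 5.9% of the tamoxifen gate (148 cells) and 1.89% of the oil gate (9 cells). Female alveolar macrophages gave 1.66 and cells in the alveolar gate alone 1.64, while male cells had 205 UMIs in tamoxifen and 1 in oil. Female cells stood at 132 CPM in tamoxifen and 41.9 CPM in oil, and male cells at 77.8 and 0.759 CPM. The part of the sex mix in the ratio of the whole gate was not tested. Over all alternatives the ratio was between 1.50 and 6.68, the highest from male cells.

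Across the other gates Cxcl3 differed less or rested on few cells. C1q macrophages had 38.1 CPM in tamoxifen and 34.3 CPM in oil, a ratio of 0.16 (-0.04 to 0.35). In cDC2 it was 28.7 and 15.8 CPM (0.86, 0.67 to 1.06). In cells of the cDC2 gate alone Cxcl3 was past 2-fold and higher in tamoxifen, on 13 tamoxifen and 5 oil positive cells. The ratio reached 2.12 when cells that also met the T or B cell gate were left out as well. In the neutrophil gate it had 612 UMIs in tamoxifen (204 CPM) and 78 in oil (99.7 CPM), the highest level of the 7 gates in each library and a ratio of 1.03 (0.69 to 1.39), but 30.2% and 56.4% of the UMIs were in 3 cells. In cells of the neutrophil gate alone the ratio was 0.81 (0.30 to 1.35), and with a mitochondrial limit of 25% the whole gate gave 0.22. The fibroblast and endothelial gates had at most 16 UMIs in either library. Over all kept cells Cxcl3 stood at 59.6 CPM in tamoxifen and 18.2 CPM in oil (1.71, 1.61 to 1.82), and the alveolar gate, with its larger share of tamoxifen cells, held 70.6% of the UMIs in tamoxifen and 19.6% in oil.

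Cxcl2, macrophage inflammatory protein 2, was the member found in the most cells, with a UMI in 38.7% of tamoxifen and 35.8% of oil cells. Over all kept cells it had 81442 UMIs in tamoxifen (1020 CPM) and 57902 in oil (1089 CPM), a ratio of -0.10. In the neutrophil gate, its highest, it was 3409 CPM in tamoxifen and 4589 CPM in oil (-0.43, -0.48 to -0.37). The C1q gate followed with 2776 and 3201 CPM (-0.21, -0.23 to -0.18), the Folr2 gate with 2685 and 2537 CPM (0.08) and the cDC2 gate with 1726 and 1733 CPM (-0.01). No gate as a whole reached a 2-fold difference. In cells of the fibroblast gate alone it was 177 CPM in tamoxifen and 54.5 CPM in oil (1.70, 1.05 to 2.38). Both of these levels lie under that of T cells outside the gates, given in the next paragraph. Male fibroblasts gave 3.27 against 0.01 in female ones. In alveolar macrophages, with 931 CPM in tamoxifen and 655 CPM in oil, the ratio was 0.51 (0.46 to 0.55) over 59% and 46% of cells, and the sexes split there at 0.52 for female and -0.36 for male cells. The ranking of its levels from neutrophils down to alveolar macrophages was the same in both libraries, and fibroblasts (417 CPM in tamoxifen, 283 CPM in oil) and endothelial cells (239 and 219 CPM) came last.

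Free RNA can give UMIs in cells that do not make a gene, and T and B cells outside the gates served as a measure of it. T cells outside all 7 gates, which should make little Cxcl2, had a UMI of it in 19.3% of 3695 tamoxifen and 22.3% of 2184 oil cells, at 244 and 331 CPM. The Cxcl2 levels of both endothelial gates and of the oil fibroblasts were thus no higher than this background. In cells of the fibroblast gate alone the Cxcl2 level was below it in both libraries, so their ratio compares levels within the background. B cells outside the gates had it in 12.2% of 377 tamoxifen and 13.6% of 213 oil cells, and 82.7% of the 445 oil UMIs were in 3 cells. In tamoxifen and oil, the same T cells had Cxcl1 in 1.03% and 0.87%, Cxcl3 in 1.49% and 1.88%, Pf4 in 3.84% and 3.25%, Cxcl13 in 0.541% and 0.412%, Cxcr2 in 0.433% and 0.321%, Cxcl12 in 0.108% and 0.275% and Cxcl14 in 0.352% and 0.595%. The shares reported for the gates of highest level lay well above these.

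Cells with Cxcl1 or Cxcl3 mostly had Cxcl2 as well, whereas most Cxcl1 cells had no Cxcl3. Of C1q macrophages with Cxcl1, 98.1% in tamoxifen and 98.7% in oil also had Cxcl2, against 76.5% and 75.4% of those without Cxcl1. Among alveolar macrophages with Cxcl1, 93.3% in tamoxifen and 84.2% in oil had Cxcl2, against 55.2% and 44.4% of those without. Alveolar macrophages with Cxcl3 had Cxcl2 in 88.3% and 80.6%, against 53.7% and 43.6% of the others. Of all cells with Cxcl1, 21.5% in tamoxifen and 11.4% in oil had Cxcl3, against 5.4% and 2.77% of the others. A cell with more UMIs in all is more likely to hold each gene, so these shares describe joint detection and not joint control.

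Cxcr2, the receptor of the ELR ligands, had its highest level in the neutrophil gate in both libraries. The neutrophil gate had 495 UMIs in tamoxifen, or 165 CPM, and 107 in oil, or 137 CPM, a ratio of 0.27 (-0.04 to 0.58), and held 72.8% and 53.2% of all Cxcr2 UMIs. In cells of the neutrophil gate alone, where the neutrophil markers summed to 132307 CPM in tamoxifen and 19068 CPM in oil, it reached 489 and 579 CPM (-0.24, -0.55 to 0.07). It was found there in 92 of 153 tamoxifen cells (60.1%) and 31 of 51 oil cells (60.8%). No difference in the receptor was detectable at this depth in these cells, and the interval of the ratio covers values down to -0.55. In the other 6 gates the level was at most 4.41 CPM in tamoxifen and 5.26 CPM in oil. Fibroblasts had no UMI in 85 tamoxifen and 99 oil cells, which allows a share of cells with a UMI of up to 3.53% and 3.03% and does not limit the share of cells that express the gene. The cDC2 gate had 68 UMIs in tamoxifen and 35 in oil (1.23, 0.62 to 1.86), and a ratio of 0.00 in the cells of that gate alone.

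Most cells of the neutrophil gate had Cxcl2, with or without the receptor. Of Cxcr2-positive cells 90.6% in tamoxifen and 93.5% in oil had it, and of Cxcr2-negative cells 71.3% and 85.3%. In the cells of that gate alone, Cxcl2 stood at 7716 CPM in tamoxifen and 12374 CPM in oil (-0.68, -0.75 to -0.61), in 86.3% and 90.2% of cells. There, 22.8% of Cxcr2-positive tamoxifen cells and 25.8% of oil cells had Cxcl3, against 13.1% and 5% of the others. Female cells gave -0.71 for Cxcl2 and male cells 1.25, but the male value rests on 21 tamoxifen and 11 oil cells of the whole gate.

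**Figure D2:**
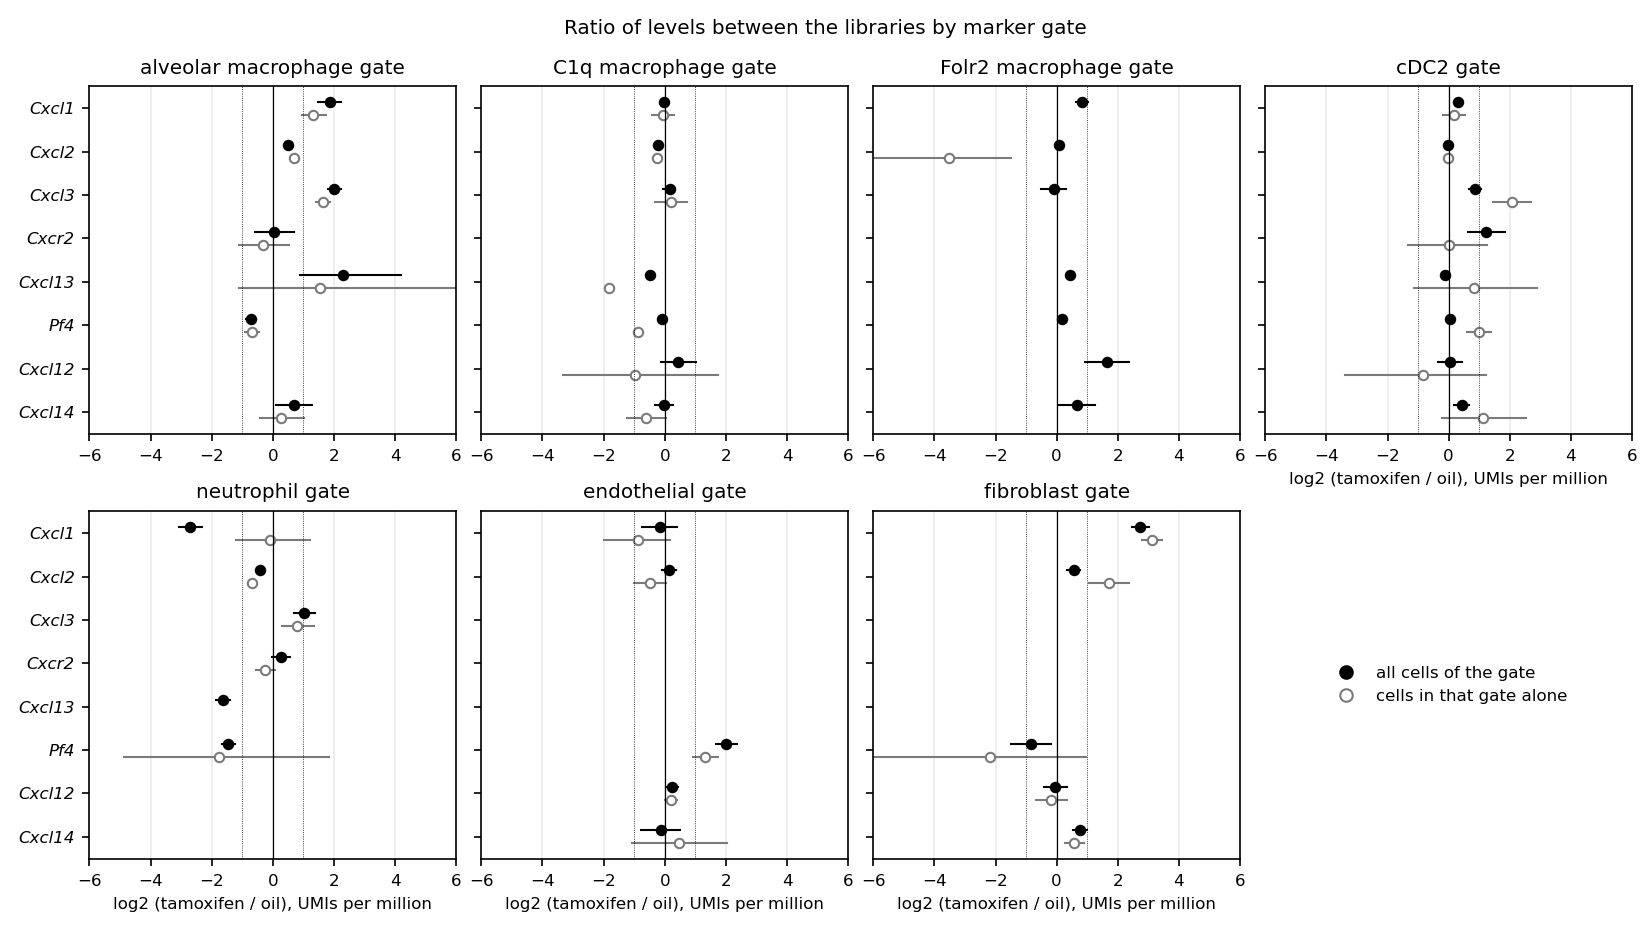
Ratio of the tamoxifen over the oil level (log2) of each gene by gate, for genes with at least 50 UMIs in the gate over both libraries. Black points are all cells of a gate and open grey points the cells in that gate alone, bars are exact 95% intervals of counting error drawn no further than 6 from 0, and dotted lines mark 2-fold. Cxcl1 in fibroblasts and Cxcl3 in alveolar macrophages lie beyond 2-fold by both colours of point, while Cxcl1, Cxcl13 and Pf4 lie left of the line in the neutrophil gate as a whole.

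Set against all genes, the members' counts differ by gate. A difference of at least 2-fold in either direction was found in 6.62% of the 11138 genes with 50 UMIs in the alveolar gate, and in 3 of 7 members (Cxcl1, Cxcl3 and Cxcl13, all higher in tamoxifen). Cxcl13 there was 86 UMIs in tamoxifen and 4 in oil, 76.7% and 75% of them in 3 cells, and its ratio of 2.29 turned to -0.05 once cells of high doublet score were left out. In the C1q gate it was 3.21% of genes and 0 of 7 members, in the Folr2 gate 3.51% and 1 of 7 (Cxcl12, higher), in the cDC2 gate 2.39% and 1 of 8 (Cxcr2, higher), in the endothelial gate 2.90% and 1 of 5 (Pf4, higher), and in the fibroblast gate 3.49% and 1 of 5 (Cxcl1, higher). The neutrophil gate had 8.79% of 6602 genes and 4 of 6 members, with Cxcl3 higher and Cxcl1, Cxcl13 and Pf4 lower in tamoxifen. In cells of the neutrophil gate alone it was 18.3% of 2577 genes and 0 of 3 members. The median ratio over all genes lay between -0.03 and 0.13 in the 7 gates.

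Cxcl13, the B lymphocyte chemoattractant, was a gene of few cells. It had 3362 UMIs in 153 tamoxifen cells and 4076 in 130 oil cells, or 42.1 and 76.7 CPM over all kept cells (-0.87), and the C1q gate held 97.2% and 99.2% of them. In C1q macrophages it stood at 243 CPM in tamoxifen and 340 CPM in oil, a ratio of -0.49 (-0.56 to -0.42). The number of positive cells was nearly the same, 98 of 1262 tamoxifen cells (7.77%) and 102 of 1221 oil cells (8.35%), and cells with at least 5 UMIs made up 5.07% and 5.08% and held 98.2% and 98.1% of the UMIs. The highest 3 cells had 226, 192 and 188 UMIs in tamoxifen and 569, 333 and 310 in oil, or 18.5% and 30% of the total, while the median positive cell had 15 and 7 UMIs. The lower tamoxifen level thus came with nearly as many positive cells and fewer UMIs in the highest 3.

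The sexes did not go together for Cxcl13. Female C1q macrophages had 173 CPM in tamoxifen and 420 CPM in oil (-1.28, -1.37 to -1.19), and male ones 394 and 238 CPM (0.73, 0.60 to 0.86). The gate held 740 female tamoxifen and 631 female oil cells, against 289 and 313 male cells. In Folr2 macrophages, where the level was the highest of the 7 gates at 532 CPM in tamoxifen and 390 CPM in oil (0.45, 0.33 to 0.56), female cells gave -0.63 and male cells 1.10. Positive cells were 39 of 234 in tamoxifen (16.7%) and 38 of 285 in oil (13.3%), with 29% and 50.5% of the UMIs in 3 cells. The sign of the ratio thus differed between the sexes in both macrophage gates. These gates share 199 tamoxifen and 214 oil cells, so they are not separate observations. Shared cells were 85% of the tamoxifen and 75.1% of the oil cells of the Folr2 gate. The C1q cells outside the Folr2 gate had 166 CPM in tamoxifen and 292 CPM in oil. In cells of the C1q gate alone the ratio was -1.82, with 87.1% of the oil UMIs in 3 cells. It was 1.39 after cells that also met the T or B cell gate were left out.

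In the neutrophil and cDC2 gates Cxcl13 was found chiefly in cells that met a further gate as well. The neutrophil gate had 331 UMIs in tamoxifen and 266 in oil, 96.1% and 96.6% of them in 3 cells, and the 153 tamoxifen and 51 oil cells of that gate alone had none, which allows a level of up to 3.22 and 16.2 CPM. In cDC2 the level was 102 CPM in tamoxifen and 111 CPM in oil, but the cells of that gate alone had 6 and 5 UMIs. Of the Cxcl13-positive alveolar cells, 15 of 20 in tamoxifen and 1 of 4 in oil were in that gate alone. Among positive fibroblasts it was 3 of 4 in tamoxifen and 0 of 1 in oil. B cells outside the gates had 1 and 2 UMIs. Of the Cxcl13 UMIs, 9.82% in tamoxifen and 37% in oil were in cells that also met a T cell gate.

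Pf4 was a macrophage and platelet gene here. Folr2 macrophages had 3147 UMIs in tamoxifen, or 1193 CPM (1152 to 1236), and 3185 in oil, or 1067 CPM, a ratio of 0.16 (0.09 to 0.23) over 70.1% and 60.4% of cells. C1q macrophages had 491 and 526 CPM (-0.10, -0.15 to -0.05) in 46.6% and 48.7%. Cells in both of these gates had 1378 CPM in tamoxifen and 1569 CPM in oil. C1q cells outside the Folr2 gate had 313 and 312 CPM, so the Folr2 side carried the higher level in both libraries. In cells of both gates the tamoxifen level was the lower, opposite to the Folr2 gate as a whole. Such cells were 85% of the tamoxifen and 75.1% of the oil cells of the Folr2 gate. Among C1q macrophages with Cxcl13, 81.6% in tamoxifen and 77.5% in oil also had Pf4, against 43.6% and 46.1% of the rest. A separate platelet gate had 2751 CPM in tamoxifen and 1851 CPM in oil, in 80 of 84 (95.2%) and 29 of 31 (93.5%) cells.

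Away from macrophages, Pf4 moved with markers of other cells. In the endothelial gate it had 330 UMIs in tamoxifen (262 CPM) and 99 in oil (65.1 CPM), a ratio of 2.01 (1.68 to 2.35), in 43 and 23 cells. Ppbp, the other abundant platelet chemokine, was at 88.8 CPM there in tamoxifen and 16.4 CPM in oil (2.43), the 3 platelet markers besides Pf4 summed to 126 and 32.9 CPM, and 10 tamoxifen and 2 oil cells among the Pf4-positive ones met the platelet gate. In the neutrophil gate Pf4 stood at 152 CPM in tamoxifen and 419 CPM in oil (-1.46), where interstitial macrophage markers summed to 2682 and 6104 CPM, and 3 and 2 UMIs were left in the cells of that gate alone. The parts of platelets and macrophages in these 2 ratios were not tested further. In alveolar macrophages the ratio was -0.70, but 78.5% of the oil UMIs lay in 3 cells, and it was 0.70 in female cells (880 UMIs in tamoxifen, 102 in oil) and 1.55 in male cells (117 and 20), the rest of the UMIs being in cells given neither sex.

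**Figure D3:**
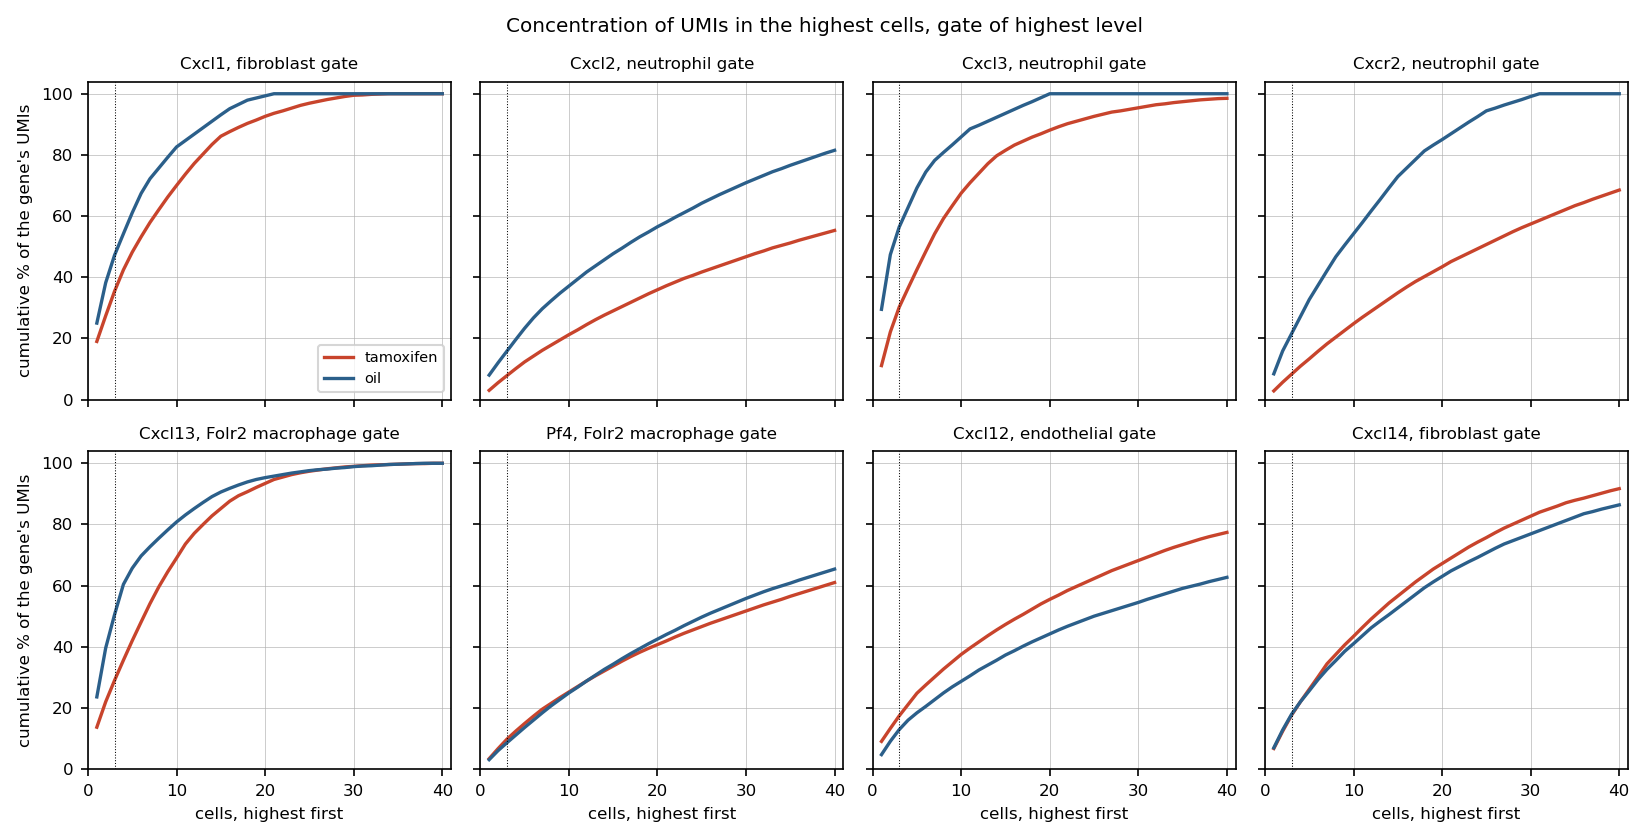
Cumulative share (%) of each gene's UMIs over the 40 highest cells, highest first, in the gate where its level was highest, for tamoxifen and oil, with a dotted line at 3 cells. Cxcl13 in Folr2 macrophages reaches 29% in tamoxifen and 50.5% in oil at that line, Cxcl1 in fibroblasts 35.4% and 47.2%, and Pf4 in Folr2 macrophages 9.76% and 8.6%.

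Cxcl12, which holds Cxcr4-bearing leukocytes near vessels and stroma, marked the few non-immune cells that passed the sort. Endothelial cells had 541 UMIs in tamoxifen, or 429 CPM (394 to 467), and 550 in oil, or 361 CPM, a ratio of 0.25 (0.07 to 0.42). The gene was in 102 of 257 tamoxifen cells (39.7%) and 141 of 281 oil cells (50.2%), or 35.7% of the 168 and 37.3% of the 204 cells deep enough for thinning. The level and the share of cells thus went opposite ways without thinning, and the thinned shares were close. In fibroblasts it stood at 115 CPM in tamoxifen and 118 CPM in oil (-0.04, -0.42 to 0.33), in 36 and 45 cells. Together these gates held 71.8% and 14.6% of the tamoxifen UMIs and 68.6% and 16.8% of the oil UMIs. The Folr2 gate passed 2-fold with 66 UMIs in tamoxifen and 24 in oil (1.64), but 74.2% of the tamoxifen UMIs were in 3 cells. Neutrophils had no UMI in 315 tamoxifen cells and 3 in the 99 oil cells, and the 0 allows a share of cells with a UMI of up to 0.952%.

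Cxcl14 was the fibroblast chemokine by share of cells. It was found in 63 of 85 tamoxifen fibroblasts (74.1%) and 69 of 99 oil fibroblasts (69.7%), at 405 CPM (366 to 448) and 240 CPM, a ratio of 0.76 (0.53 to 0.99). The UMIs were spread evenly, with 17.6% and 17.9% of them in 3 cells. Female fibroblasts gave 1.00 and male fibroblasts -0.01. The other 6 gates were at 30.9 CPM or less in tamoxifen and 33.5 CPM or less in oil, and B cells outside the gates had none, which allows up to 0.968 and 1.33 CPM. Fibroblasts with Cxcl1 also had Cxcl14 in 73.5% of tamoxifen and 85.7% of oil cells, against 74.5% and 65.4% of fibroblasts without Cxcl1. They had Cxcl12 in 58.8% and 47.6%, against 31.4% and 44.9% of those without.

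**Figure D4:**
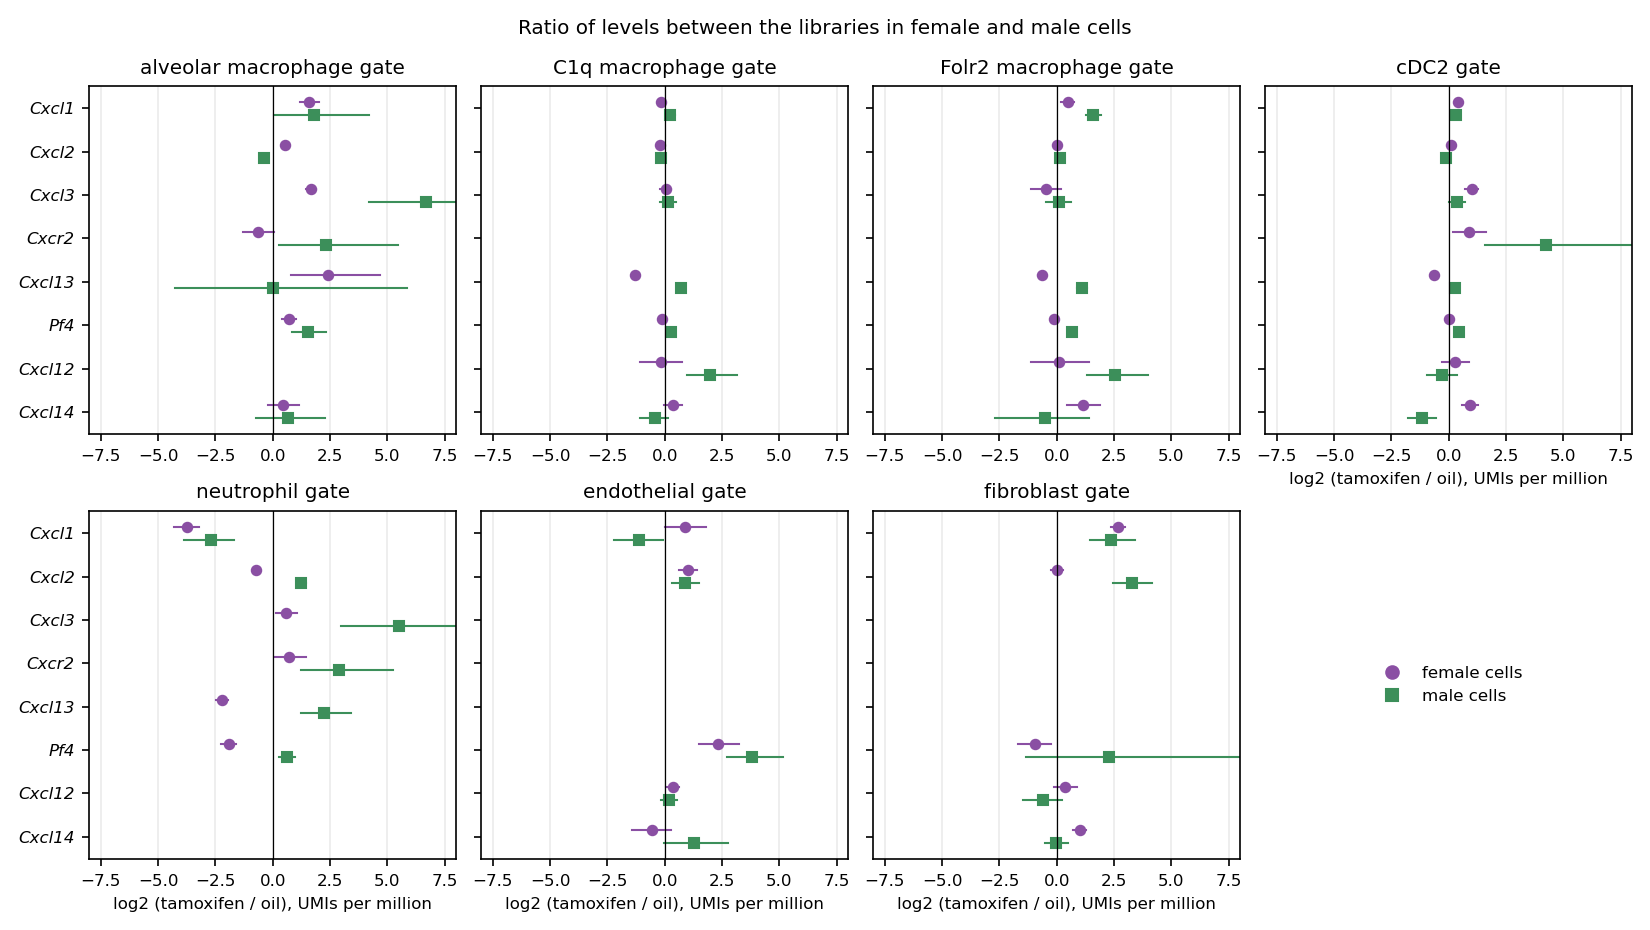
Ratio of the tamoxifen over the oil level (log2) in female cells (circles) and male cells (squares) of each gate, with exact 95% intervals of counting error drawn no further than 8 from 0. Cxcl1 in fibroblasts (2.67 female, 2.39 male) lies on the same side of 0 in both sexes, while Cxcl13 in C1q macrophages (-1.28 and 0.73) lies on opposite sides.

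Other genes of the pathway were read from lists, by counts of genes at least 2-fold different among those with 50 UMIs, with the list's median beside that of all genes. Of 16 NF-kB response genes tested in alveolar macrophages 1 was higher in tamoxifen (Tnf, 1.23, at 103 CPM against 44 CPM in oil) and 2 were lower (Ccl4, -1.55, and Socs3, -1.03), with a median of 0.00 against 0.13 for all genes. In cells of the alveolar gate alone 1 of 16 was higher and 1 lower, and the median was 0.34 against 0.07. In the fibroblast gate 1 of 14 was higher (Ccl4, 1.61) and the median was 0.25 against 0.01. In cells of the fibroblast gate alone 2 of 11 were higher and 1 lower, and the median was 0.70 against 0.02. In the endothelial gate 1 of 14 was higher (Cd14, 1.26), and in the C1q, Folr2 and cDC2 gates 0 of 16 passed, with medians of -0.25, -0.30 and -0.23. In the neutrophil gate 0 were higher and 6 lower (Nfkbiz, Ptgs2, Ccl3, Ccl4, Socs3 and Icam1), with a median of -0.77 against 0.08. In that gate interstitial macrophage markers summed to 2682 CPM in tamoxifen and 6104 CPM in oil, neutrophil markers to 41372 and 4524 CPM, and 19% and 38.4% of the cells met the C1q gate. In cells of the neutrophil gate alone, 0 of 16 were higher and 7 lower, with a median of -0.98 against -0.17. Interstitial macrophage markers there summed to 876 CPM in tamoxifen and 347 CPM in oil, and neutrophil markers to 132307 and 19068 CPM. The parts of macrophages and neutrophils in the list's values were not tested. The 12 immediate early genes, which tissue digestion can induce, had 0 past 2-fold in either direction in every gate but the neutrophils, where Jun (-1.01) and Atf3 (-1.23) were lower and the median was -0.75. Their median was 0.39 against 0.01 for all genes in the fibroblast gate and 0.17 against -0.03 in the endothelial gate. In the alveolar, C1q, Folr2 and cDC2 gates it was -0.14, -0.33, -0.08 and -0.14, against 0.13, 0.08, 0.10 and 0.05. In cells of the fibroblast gate alone 1 of 12 was higher and the median was 0.54 against 0.02. The part of digestion in these values was not tested.

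Of 7 other CXC ligands present, 4 were tested in alveolar macrophages and 2 were higher (Cxcl9 and Cxcl15). In the C1q gate 1 of 3 was higher (Cxcl9), in the Folr2 gate 1 of 3 (Cxcl9), in the cDC2 gate 1 of 5 (Cxcl15), in neutrophils 1 of 3 (Cxcl9) and in fibroblasts 1 of 3 (Cxcl15). In the endothelial gate 1 of 4 was higher (Ppbp) and 1 lower (Cxcl9). Cxcl9 had 0 UMIs there in tamoxifen and 75 in oil, at least 20.7-fold lower when tamoxifen is set at 3 UMIs. In cells of the endothelial gate alone 3 of these ligands were tested, with 1 higher and 0 lower. Cxcl9 had too few UMIs to be tested in those cells, so its lower level was not shown for them. Of the IL-17 and IL-1 list 2 of 6 were higher in alveolar macrophages (Il17a and Il17f), 1 of 5 in C1q and 1 of 4 in Folr2 macrophages. It was 2 of 7 in cDC2, 1 of 4 in neutrophils, 1 of 3 in endothelial cells and 2 of 4 in fibroblasts, and none was lower. Every gene counted was Il17a or Il17f. This list's medians were 0.45, -0.05, 0.21 and -0.07 in the alveolar, C1q, Folr2 and cDC2 gates, against 0.13, 0.08, 0.10 and 0.05 for all genes. In the neutrophil, endothelial and fibroblast gates they were 0.19, 0.27 and 1.50, against 0.08, -0.03 and 0.01. Il17a was past 2-fold and higher in tamoxifen in all 7 gates, among them alveolar macrophages with 48.2 CPM in tamoxifen and 5.28 CPM in oil (3.19), and in neutrophils 277 UMIs against 0 in oil, at least 24-fold higher when oil is set at 3 UMIs. It is a gene of T cells, and the alveolar gate, where T cell markers summed to 194 CPM in tamoxifen and 139 CPM in oil, shared 309 tamoxifen and 41 oil cells with the T cell gate. Cxcl9, an interferon-induced ligand of Cxcr3, stood at 252 CPM in tamoxifen and 30.6 CPM in oil C1q macrophages (3.04) and at 51.7 and 12.8 CPM in alveolar ones (2.01). Among chemokine receptors 0 of 5 were higher and 2 lower in alveolar macrophages, Cxcr1 at 1.82 CPM in tamoxifen and 13.6 CPM in oil (-2.90) and Cxcr3 at 4.48 and 11.2 CPM (-1.32), and 0 of 4 passed in C1q macrophages. Cxcr6 was higher in the Folr2 (1.46), fibroblast (1.18) and neutrophil (1.03) gates. Ccrl2 was lower in the neutrophil gate (-1.21), and no receptor passed in the cDC2 or endothelial gate. The receptor list's medians lay between -0.54 (neutrophil gate) and 0.41 (endothelial gate). Cxcr4, which binds Cxcl12, was at 148 and 138 CPM in C1q macrophages (0.10). Csf3r, the receptor of granulocyte colony-stimulating factor, was at 20.9 and 7.04 CPM in alveolar macrophages (1.57), beside neutrophil markers at 84.3 and 36.7 CPM in that gate. Csf2, of the same list, was lower in the alveolar (-2.66) and cDC2 (-1.23) gates. In the neutrophil gate Csf2 had 74 UMIs in tamoxifen and 0 in oil, at least 6.42-fold higher. That list's medians in the alveolar, cDC2 and neutrophil gates were 0.53, 0.27 and 0.15. Of the lymphoid aggregate list, which holds lymphotoxin and follicle genes, 0 genes passed in any of the gates except Tnfsf13b (-1.26) in neutrophils. Its medians lay between -0.18 (C1q gate) and 0.36 (alveolar gate). Of 4 glycosaminoglycan partners, Srgn (-1.05) and the chemokine-trimming protease Dpp4 (-1.81) were lower in alveolar macrophages. Sdc4 was lower in neutrophils (-1.49) and Dpp4 in fibroblasts (-2.14). The list's medians in the alveolar, neutrophil and fibroblast gates were -0.88, -0.36 and -0.71, against 0.13, 0.08 and 0.01 for all genes.

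The genes most like each member were found by Pearson's r of log2(CPM + 1) over 28 points, 14 gates in 2 libraries, among 12851 genes. These points share cells and libraries, so r is a description. Of the epithelial-gate cells among them, 42.5% in tamoxifen and 20.7% in oil met the alveolar gate, and 47.3% and 59.1% the cDC2 gate. Cxcl2 was nearest to Siglece and Csf1r (0.94 each), both genes of myeloid receptors, and Cxcr2 to Slfn4 (0.95) and Trem3 (0.91). Cxcl12 was nearest to Arhgap29 (0.98), Ddah2 and Rhoj (0.97 each), Cxcl14 to Cp, Colec12 and Lpar1 (0.94 each), and Pf4 to F13a1 and Hacd4 (0.87 each). Cxcl13 was nearest to Folr2 (0.86), which helps define a gate, followed by 2900052N01Rik (0.81) and Birc3 (0.80). Cxcl1 (Caprin2, 0.85) and Cxcl3 (Gm44751, 0.90, and Nfil3, 0.87) had no other member or list gene among their nearest 3.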

How the data were processed

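The values deposited by the authors are raw counts of UMIs for each gene in each barcode, from Cell Ranger 5.0.1 and the GRCm38 (mm10) genome, per the submitters' processing notes. No source used here names the annotation version. Barcodes were kept with at least 300 genes and under 10% mitochondrial UMIs. The 7 gates were applied as thresholds on summed UMIs, and a cell could meet several. Further gates were T cells (Cd3d, Cd3e and Cd3g), B cells (Cd79a and Ms4a1) and platelets (Gp9, Itga2b and Gp1bb), each at least 2. Likeness also used gates for cDC1, another dendritic cell type (Xcr1 and Clec9a, at least 2), and mature dendritic cells (Ccr7 and Fscn1, at least 3). It also used epithelial (Epcam, Cdh1 and Cldn18, at least 2) and Ly6i Gpnmb (Ly6i and Gpnmb, at least 3) gates. Cells were not clustered. Doublets were kept in the main values and left out in an alternative by their Scrublet score, at a nominal 0.8% per 1000 barcodes, since the automatic threshold marked 473 tamoxifen cells (4.67%) but 4 oil cells (0.0589%). That alternative left out 822 tamoxifen (8.11%) and 369 oil (5.43%) cells.

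UMIs were summed per gate and library and divided by all UMIs of those cells. Intervals are exact, Poisson for levels, Clopper-Pearson for shares and conditional binomial for ratios, at 95%. Each cell was thinned to 1500 UMIs for shares at equal depth, and shallower cells were left out there. A count of 0 was read as a limit of 3 UMIs. Genes were counted as different at 2-fold or more, among genes with at least 50 UMIs over both libraries in the gate. Named were the 8 members, list genes past 2-fold and up to 3 genes nearest each member by r, while Cxcr4 was chosen after its values were seen. Likeness used gates of at least 30 cells in each library and genes of at least 100 UMIs. The members, gates and lists were chosen with earlier results of these data known. Positions were read from GENCODE M21 on GRCm38 by gene identifier and promoters from RefSeq on GRCm38.p6 by symbol, and 8 of 8 members matched. The ratio and its interval were run on simulated Poisson sums, the model that the interval assumes. That run did not cover the gates, the thinning, the shares or UMIs gathered in few cells. Software was Python 3.11.15, NumPy 2.4.6, SciPy 1.17.1, pandas 2.3.3, Scanpy 1.11.5 and Matplotlib 3.10.9.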

Additional observations from a re-analysis of the deposited data

Results flagged for a closer look

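Female and male cells of the same gate were compared between the libraries as separate contrasts. Of 45 pairs of a gene and a gate, 13 had ratios (log2, tamoxifen over oil) whose counting intervals lay on opposite sides of 0. The share of all genes that split in this way was not computed, so the count cannot be read as particular to the members. The gates share cells, so the pairs are not separate observations. Of the 68 tamoxifen and 62 oil cells with at least 5 Cxcl13 UMIs, 64 and 62 met the C1q gate. The Folr2 gate was met by 27 and 24 of them, the cDC2 gate by 46 and 41 and the neutrophil gate by 4 and 4. Each sex comes from the same 2 libraries, so the difference between the sexes was not tested, and the number of animals of each sex is not known.

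In alveolar macrophages Cxcl2 was 0.52 in female cells and -0.36 in male cells. In C1q macrophages Cxcl1 was -0.15 in female and 0.25 in male cells, Cxcl13 was -1.28 and 0.73, and Pf4 was -0.13 and 0.26. In Folr2 macrophages Cxcl13 was -0.63 in female and 1.10 in male cells, and Pf4 was -0.12 and 0.68. In cDC2 the female and male values were 0.12 and -0.11 for Cxcl2, -0.65 and 0.27 for Cxcl13, and 0.91 and -1.16 for Cxcl14. In the neutrophil gate they were -0.71 and 1.25 for Cxcl2, -2.21 and 2.25 for Cxcl13, and -1.93 and 0.61 for Pf4, over 189 tamoxifen and 42 oil female cells and 21 and 11 male cells. Cxcl13 was found in 8 tamoxifen and 5 oil cells of that gate, and in none of the 153 and 51 cells of that gate alone. In endothelial cells Cxcl1 was 0.90 in female and -1.11 in male cells.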

How the results depend on the processing

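No paired analysis was possible because each condition has 1 library and the labels give no replicate numbers, and for the same reason no replicate could be left out. Ratios below are log2 of tamoxifen over oil. For the gate of highest level of each member, 47 of 90 alternative values lay inside the interval of the reported ratio and 43 outside it. For the 37 other pairs 248 of 426 lay inside. Where the interval of the reported ratio lay off 0, the sign changed in 4 of 78 alternative values at the highest gates and in 27 of 273 for the other pairs. Among ratios of at least 2-fold it changed in 4, all of other pairs: Cxcl13 in alveolar macrophages without cells of high doublet score (-0.05), Cxcl1 in neutrophils in 1 gate and in no T or B cell gate (0.35), and Cxcl13 (2.25) and Pf4 (0.61) in male neutrophils. Settings that used 1 gate together with a doublet or a T and B cell filter were chosen after seeing the data.

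For Cxcl13 in Folr2 macrophages (0.45) the outlying values were 0.62 with gate thresholds doubled, 0.73 without high doublet scores, -0.63 in female and 1.10 in male cells, 0.97 without the 3 highest cells and 0.74 as a mean of per-cell CPM. For Pf4 there (0.16) they were 0.38, 0.31, -0.12 and 0.68 under the first 4 of these settings, 0.30 as the per-cell mean and 0.06 with median-of-ratios scaling. For Cxcl2 in neutrophils (-0.43) they were -0.71 with at least 1000 genes, -0.68 in 1 gate, -0.64 in 1 gate without high doublet scores, -0.71 in female and 1.25 in male cells, -0.32 without the 3 highest cells, -0.50 with median-of-ratios scaling and -0.19 as the per-cell mean. For Cxcl3 in neutrophils (1.03) they were 0.22 at a 25% mitochondrial limit, 0.58 in female and 5.51 in male cells, 0.41 in 1 gate without T or B cells and 1.69 without the 3 highest cells. For Cxcr2 in neutrophils (0.27) they were 1.11 with at least 1000 genes, -0.26 with thresholds doubled, -0.24 in 1 gate, -0.27 in 1 gate without high doublet scores, -0.43 in 1 gate without T or B cells, 0.72 in female and 2.89 in male cells, and -0.07 as the per-cell mean. Cxcl12 in endothelial cells (0.25) gave 0.52 without high doublet scores and 0.03 as the per-cell mean. Cxcl1 in fibroblasts (2.74) gave 3.10 with thresholds doubled, 3.11 in 1 gate, 3.18 without high doublet scores, 2.39 in male cells and 3.02 without the 3 highest cells, and Cxcl14 there (0.76) gave 1.00 in female and -0.01 in male cells and 0.53 as the per-cell mean. At a minimum of 20 UMIs in place of 50, 4 of 8 members in place of 3 of 7 were past 2-fold in alveolar macrophages (Cxcl12 added, lower in tamoxifen). It was 1 of 8 in place of 0 of 7 in C1q macrophages, and 2 of 6 in place of 1 of 5 in both endothelial cells and fibroblasts. The share of all genes past 2-fold rose too, from 6.62% to 9.86% in the alveolar gate and from 3.21% to 5.37% in the C1q gate. In the endothelial gate it rose from 2.90% to 6.54%, and in the fibroblast gate from 3.49% to 6.84%. The cause of these shifts was not tested. Depth limits gates with few cells, such as the 85 tamoxifen and 99 oil fibroblasts, and cells of few UMIs, such as the endothelial ones with a median of 3238 and 4046.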
